A study of Mus musculus with 6 samples.

Results

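The genes that neighbour Ppme1 on mouse chromosome 7 were compared between immortalized mouse embryonic fibroblasts (MEFs) with and without PME-1. Ppme1 codes for PME-1, an esterase that demethylates the catalytic C subunit of the phosphatase PP2A. The group holds 10 of the 53762 gene symbols in the count files: Spcs2, Rnf169, Pold3, Lipt2, Pgm2l1, P4ha3, C2cd3, Ucp2, Dnajb13 and Coa4, in order of position. Each lies within 500 kb of Ppme1 in the GENCODE M21 annotation of GRCm38, where Ppme1 spans chromosome 7 from 100326737 to 100372307 on the minus strand. The farthest of them is Spcs2, 463.3 kb away. The 10 are not every gene of the interval, which holds 30 more annotated genes. The genes were chosen by position around Ppme1, with the measured difference between knockout and wild-type cells already known, above all that of Ucp2, so the values of the 10 genes in that comparison are given as a description and without p-values. The other genes of the interval are taken from the annotation, and their test is given.

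RNA was sequenced from 3 libraries of wild-type (WT) and 3 of PME-1 knockout (KO) MEFs, collected 24 hours after seeding in medium with 10% serum. Groups follow the sample titles, since the genotype entries of KO 2 and KO 3 name other numbers after PME. The labels do not say how the knockout was made, whether each group is 1 line or clone, or whether replicates were separate cultures. P-values therefore reflect the spread among these libraries alone, possibly a technical one. Levels are CPM, read counts relative to the effective library size, given as mean ± SD (n = 3 per group). Fold changes are KO against WT, as log2 values with a standard error (SE) and, where given, a 95% interval.

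Neighbouring genes on a chromosome can share a promoter, overlap at their ends, or answer to the same enhancers without having related functions. Ucp2 is a carrier of the mitochondrial inner membrane related to the uncoupling protein of brown fat, and is known for its expression in immune cells and many other tissues. P4ha3 encodes a catalytic subunit of the enzyme that hydroxylates prolines in collagen, Pold3 a subunit of DNA polymerase delta, Spcs2 a subunit of the signal peptidase and C2cd3 a protein of the centriole's distal end that is needed for cilia.

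The libraries carried several features that bear on every value below. Total counts were 34450993 to 44116310 per library, and 3 counts, used as a floor, correspond to 0.0689 to 0.0881 CPM. WT 1 and KO 1 stood apart from the other libraries of their groups: their counts differed from those of the others by a chi-square of 123.3 to 151.9 per degree of freedom, against 13.28 for WT 2 with WT 3 and 13.82 for KO 2 with KO 3. Their shifts tended to run in opposite directions: the deviations of WT 1 and KO 1 from their group means correlated at -0.512 over the tested genes. Prrx1 was at 139, 210 and 225 CPM in WT 1 to 3 and at 239, 139 and 133 in KO 1 to 3. Nes was at 214, 92.2 and 98.9 CPM in WT 1 to 3 and at 174, 425 and 437 in KO 1 to 3. In such genes WT 1 and KO 1 each lay toward the other genotype. Xist had 16003 to 18859 counts in WT and 4 to 12 in KO, while Ddx3y, a Y-linked gene, had 0 counts in every WT library and 1988 to 3061 in KO. Sex markers thus separate the groups exactly as genotype does, and the 2 cannot be told apart here. Summed fibroblast markers, all 12 detected, were at 15900 to 21900 CPM in WT and 13000 to 15200 in KO. Among them Col1a1 and Pdgfrb were lower in KO, with log2 fold changes of -0.98 and -1.27 (edgeR adjusted p = 0.0209 and 0.0233). Thy1 and Dcn were higher in KO, with an adjusted p above 0.05. Of 8 macrophage and leukocyte markers, Adgre1, Tyrobp and Cd3e were among those at 0 counts in every library, and the list summed to 1.3 to 2.96 CPM in WT and 1.23 to 5.12 in KO. Of 8 epithelial markers, Krt5 and Krt14 were at 0, and the sum was 8.54 to 32 CPM in WT and 127 to 147 in KO. Most of the KO sum was Krt18 and Krt19. Krt18 rose from 1.39 ± 0.369 to 75.5 ± 28.3 CPM (54.4-fold, edgeR adjusted p = 0.000753). Krt19 went from 14.3 ± 13.2 to 53.3 ± 20.9 CPM, with overlapping groups. Krt8 was 14.9-fold higher (adjusted p = 0.0109). Cldn4, Epcam and Cdh1 had log2 fold changes of 3.13, 0.07 and -1.35, each with an adjusted p above 0.05. Endothelial, adipocyte and skeletal muscle markers, 6 in each list, summed to at most 6.98 CPM in any library, and 6 neural markers to 109 to 227 CPM in WT and 196 to 461 in KO. Most of the neural sum was Nes. Sox2, a neural marker, rose from 2.03 ± 0.237 to 14.1 ± 1.87 CPM (edgeR adjusted p = 0.00134). The endothelial marker Tek was also called higher, from 0.192 ± 0.0746 to 1.54 ± 0.686 CPM. The part of sex and of these markers in the differences below was not tested.

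Ppme1 itself was reduced but not absent in KO. It was at 78.4, 80.7 and 86.6 CPM in WT 1 to 3 and at 18.2, 14.9 and 18.9 in KO 1 to 3, a log2 fold change of -2.24 (SE 0.13, edgeR quasi-likelihood adjusted p = 0.000563).

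A stretch between the starts of Ppme1 and C2cd3 is printed first, because the genes run from either side of it in opposite directions and it belongs to the promoter windows of both. RefSeq (GRCm38.p6) places the start of Ppme1 at 100371896 on the minus strand and that of C2cd3 at 100372233 on the plus strand, 337 bases apart. The 300-base promoter windows of both genes (250 bases before to 50 after the start) share 164 bases, chr7:100371983-100372146, shown here on the plus strand, the sense strand of C2cd3. Capitals mark the letters CCGGAAG, the core bound by ETS factors, searched on both strands.
Ppme1 and C2cd3: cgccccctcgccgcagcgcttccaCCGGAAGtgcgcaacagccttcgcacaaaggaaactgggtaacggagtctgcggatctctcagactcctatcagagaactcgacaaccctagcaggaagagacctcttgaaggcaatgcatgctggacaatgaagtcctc
The 7 letters occur once in the shared stretch, and 8.86% of 32851 promoter windows of the same length hold them. GENCODE M21 extends Ppme1 farther, so that its exons overlap those of C2cd3 by 75 bases, from 100372233 to 100372307.

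The 250 bases before the RefSeq starts of Ucp2 and P4ha3 are shown because these genes differed most, in opposite directions, among the neighbours with reads in every library. Both are on the plus strand of GRCm38.p6, Ucp2 at chr7:100493108-100493357 and P4ha3 at chr7:100285270-100285519. Capitals mark the GC box, GGGCGG or CCGCCC on the strand shown, with overlapping occurrences counted separately.
Ucp2: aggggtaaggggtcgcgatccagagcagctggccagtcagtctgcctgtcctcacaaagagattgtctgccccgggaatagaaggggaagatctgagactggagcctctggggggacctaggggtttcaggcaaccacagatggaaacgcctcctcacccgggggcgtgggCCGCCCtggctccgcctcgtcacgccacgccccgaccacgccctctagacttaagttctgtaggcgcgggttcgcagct
P4ha3: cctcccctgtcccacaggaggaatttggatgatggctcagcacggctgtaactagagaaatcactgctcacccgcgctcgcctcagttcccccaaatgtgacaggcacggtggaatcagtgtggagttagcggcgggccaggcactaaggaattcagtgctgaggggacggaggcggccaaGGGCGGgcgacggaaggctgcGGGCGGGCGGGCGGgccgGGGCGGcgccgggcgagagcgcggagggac
The stretch before P4ha3 holds 5 GC boxes and that before Ucp2 holds 1. Over the full 300-base windows, all 10 genes had an entry and 7 held a GC box, against 35.7% of all windows. CCAAT or its complement ATTGG was in 5 of the 10 windows (37.4% of all), CCGGAAG in 3, and TATAAA (13.6% of all), the E-box CACGTG (7.15%) and the AP-1 site TGACTCA (5.2%) in 1 window each. The single TATAAA was in the window of Rnf169, CACGTG in that of Pgm2l1 and TGACTCA in that of Pold3, each on either strand. CpG content ranged from 8 CpGs in the window of Dnajb13 to 39 in that of Pgm2l1, with 21 at Ucp2, 30 at P4ha3 and a median of 7 over all windows. These letter matches are descriptions of the reference sequence and show no binding.

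Among the 10 neighbours, Ucp2 was far higher in KO cells, P4ha3 was several-fold lower, and the others differed by less than 2-fold, apart from Dnajb13, which had few reads. All 10 passed the filter on low counts, but Dnajb13 passed only through its KO libraries and so had to differ. In the fit over all genes, 4 of the 10 were past the adjusted threshold of 0.05 in edgeR, Ucp2 and Dnajb13 higher and Pgm2l1 and P4ha3 lower. Of all 15223 genes tested, 7.40% were past it in either direction, 3.55% higher and 3.86% lower. The groups did not overlap for 9 of the 10 genes, 4 higher and 5 lower, against 30.0% of all tested genes (14.6% higher and 15.4% lower). Since the group was proposed with this comparison known, nothing is read from these counts. The median log2 fold change of the 10 was -0.20, beside 0.01 over all tested genes.

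**Figure D1:**
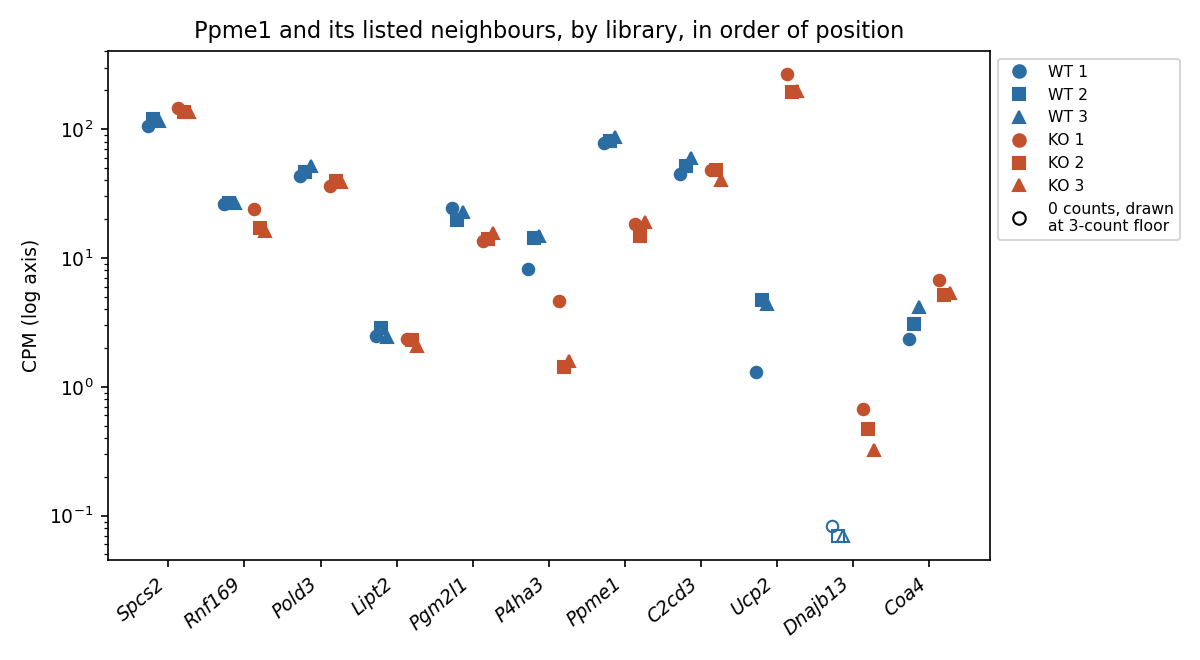
CPM (log axis) of Ppme1 and the 10 listed neighbours in each of 3 WT (blue) and 3 KO (red) libraries, in order of position, with 1 point per library and open symbols for 0 counts drawn at the floor of 3 counts. Ucp2 lies between 1.30 and 4.69 CPM in WT and between 192 and 268 in KO, while the groups overlap for C2cd3 alone.

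The neighbours at lower coordinates are described first, from the farthest to the nearest. Spcs2 (ENSMUSG00000035227.7, 99837569 to 99863462, minus strand), a subunit of the complex that cuts signal peptides from secreted proteins, was at 106, 120 and 115 CPM in WT 1 to 3 and at 145, 136 and 135 in KO 1 to 3. All KO libraries were above all WT libraries, and the difference was small, a log2 fold change of 0.29 (SE 0.10, interval 0.05 to 0.52). A pseudogene, Spcs2-ps on chromosome 2, matches Spcs2 transcripts over 683 bases at 95.8% identity, but it held 14 counts in all, each of them in WT 2.

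Rnf169 (99920254 to 99980448, minus strand) encodes a ubiquitin-binding protein recruited to DNA double-strand breaks. It was at 26.0, 26.8 and 26.6 CPM in WT and at 23.9, 17.2 and 16.0 in KO, a log2 fold change of -0.47 (SE 0.18, interval -0.89 to -0.06). The WT libraries were close together, and KO 1 lay nearer to them than KO 2 and KO 3 did. Without KO 1 the value was -0.67, and Rnf169 then passed the edgeR threshold.

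Pold3 (100082111 to 100121565, minus strand), the DNA polymerase delta subunit that also serves in break-induced replication, was at 43.1, 46.6 and 51.9 CPM in WT and at 36.3, 39.8 and 38.7 in KO. The groups did not overlap and the log2 fold change was -0.30 (SE 0.12, interval -0.58 to -0.03). A pseudogene on chromosome 4, Gm12475, matches Pold3 over 505 bases at 90.3% identity and had 0 counts in every library. Lipt2 (100159277 to 100161365, plus strand), the octanoyltransferase that begins the attachment of lipoic acid to mitochondrial enzymes, had 70 to 124 counts per library. It was at 2.50, 2.86 and 2.43 CPM in WT and at 2.33, 2.32 and 2.06 in KO, a log2 fold change of -0.22 (SE 0.26). The interval from -0.83 to 0.40 includes both no difference and a fall of about the size seen for Pgm2l1.

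Pgm2l1 (100227394 to 100278868, plus strand) encodes glucose 1,6-bisphosphate synthase, which makes the cofactor of phosphoglucomutases. It was at 24.6, 19.7 and 22.7 CPM in WT and at 13.5, 14.1 and 15.6 in KO, with a log2 fold change of -0.63 (SE 0.15, interval -0.98 to -0.29). The highest KO library was below the lowest WT library. Its place past the threshold was lost when any 1 library was left out, with values from -0.72 to -0.55.

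P4ha3 (ENSMUSG00000051048.17, 100285520 to 100319699, plus strand) ends 7.0 kb from the nearer end of Ppme1. It was at 8.24, 14.3 and 14.7 CPM in WT 1 to 3 and at 4.66, 1.43 and 1.59 in KO 1 to 3, from 297, 617 and 641 counts against 180, 61 and 54. The groups did not overlap, and WT 1 and KO 1 lay nearest to each other. The mean was 12.4 ± 3.61 CPM in WT and 2.56 ± 1.82 in KO, 4.84-fold lower (log2 fold change -2.28, SE 0.52, interval -3.52 to -1.04). The fold was 8.23 without KO 1 and 9.62 without WT 1 and KO 1, and between 3.90 and 5.59 when any other single library was left out. Of these fits with 1 library left out, only that without KO 1 kept P4ha3 past the threshold.

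C2cd3 (ENSMUSG00000047248.20, 100372233 to 100470152, plus strand), which starts just beyond the stretch printed above, was at 44.6, 52.0 and 59.2 CPM in WT and at 48.0, 48.1 and 40.4 in KO. The groups overlapped, with KO 1 and KO 2 above WT 1. The log2 fold change was -0.19 (SE 0.14), and its interval of -0.53 to 0.15 lies wholly above the -2.24 of Ppme1. Within a library, Ppme1 had 1.76, 1.55 and 1.46 counts for each C2cd3 count in WT 1 to 3 and 0.380, 0.310 and 0.468 in KO 1 to 3. C2cd3 also overlaps the antisense gene Gm10603, with 274 bases of exons in common, but Gm10603 had only 0 to 25 counts per library.

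Ucp2 (ENSMUSG00000033685.13, 100493337 to 100502020, plus strand) lies 121.0 kb from Ppme1, beyond C2cd3 and Ucp3. It had 47, 203 and 192 counts in WT 1 to 3 and 10363, 8200 and 6682 in KO 1 to 3. These are 1.30, 4.69 and 4.41 CPM in WT and 268, 192 and 196 CPM in KO. WT 1 was the lowest library and KO 1 the highest, and the lowest KO library was far above the highest WT library. The mean level was 3.47 ± 1.88 CPM in WT and 219 ± 42.6 in KO, 62.7-fold higher (log2 fold change 5.97, SE 0.50, interval 4.77 to 7.17). The fold was 48.4 without WT 1, 55.4 without KO 1 and 42.6 without both, and reached 75.7 without WT 2. Of 15223 tested genes, 0.992% passed the threshold and were at least 8-fold higher in KO. Per kilobase of its principal transcript, Ucp2 went from the 13.4 to 22.8 percentile of 14816 tested genes with a known length in WT libraries to the 88.3 to 92.4 percentile in KO libraries. Ppme1 went from the 78.7 to 81 percentile to the 42.3 to 46.9 percentile on the same scale.

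The closest relatives of Ucp2 did not share this level. Ucp3, which lies between C2cd3 and Ucp2 (100472990 to 100486432) and is known from skeletal muscle, and Ucp1, the uncoupling protein of brown fat, had 0 counts in every library. Of 11 uncoupling proteins and near carriers, 9 were tested and 1 was called higher, beside 3.55% of all tested genes. It was Slc25a30, a mitochondrial carrier related to the uncoupling proteins. Slc25a30 rose from 42.2 ± 1.68 to 73.7 ± 3.03 CPM (log2 fold change 0.80, SE 0.10, edgeR adjusted p = 0.00553), higher in 3 of 3 KO libraries than in any WT library. It was called in each of the 6 fits with 1 library left out. The ADP/ATP carriers Slc25a4 and Slc25a5, the most abundant of the list in CPM, had log2 fold changes of 0.05 (adjusted p = 0.876) and 0.05 (adjusted p = 0.95).

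Dnajb13 (100501716 to 100514960, minus strand) runs toward Ucp2 and overlaps its 3′ end by 305 bases, all of them exonic in both genes. Dnajb13 is known as a protein of the radial spokes of motile cilia and sperm tails. It had 0 counts in each WT library and 26, 20 and 11 counts in KO 1 to 3, at 0.673, 0.469 and 0.323 CPM. Against a floor of 3 counts per WT library the KO mean was at least 6.62-fold higher. The Dnajb13 counts were 0.251%, 0.244% and 0.165% of the Ucp2 counts in KO 1 to 3. If the summed KO share of 0.226% also held in WT, the 442 Ucp2 counts of WT would come with 0.998 Dnajb13 counts in all, under the floor. Whether the share is constant was not tested, and the 0 counts in WT cannot decide it. The kit keeps strand, but the strand setting of the counting is not given in the sources used here, so Dnajb13 counts cannot be told apart from reads of the Ucp2 end, and Dnajb13 is uncertain.

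Coa4 (100537071 to 100540369, plus strand), an assembly factor of cytochrome c oxidase, is the last of the listed genes. It was at 2.33, 3.05 and 4.13 CPM in WT and at 6.70, 5.16 and 5.37 in KO. All KO libraries were above all WT libraries, and the log2 fold change was 0.86 (SE 0.29, interval 0.18 to 1.54). It did not pass the threshold in edgeR over all genes. Without WT 1 and KO 1 it was 0.55.

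The 30 other annotated genes within 500 kb of Ppme1 comprise 11 protein-coding genes, and the rest are pseudogenes or noncoding genes. Of them 17 had any count and 12 were tested, among these 8 protein-coding genes, and 3 passed the edgeR threshold, 2 higher and 1 lower, where 3.55% of all tested genes passed it higher and 3.86% lower. Both higher genes, Gm35082 and Plekhb1, passed the filter on low counts only through KO libraries, so their direction was fixed and they are given without a p-value. Gm35082, a long noncoding RNA gene 302.8 kb away, had 0 counts in every WT library and 20, 37 and 20 in KO 1 to 3, at least 8.91-fold higher against the floor of 3 counts per library. Plekhb1, a pleckstrin homology domain protein 270.6 kb away, had 0, 4 and 0 counts in WT and 97, 43 and 20 in KO. Its ratio of summed counts was 42.6, with a 95% counting interval from 16.3 to 158. Rab6a, a GTPase of Golgi transport, fell from 188 ± 5.95 to 137 ± 4.60 CPM (log2 fold change -0.45, SE 0.09, edgeR adjusted p = 0.0355), lower in 3 of 3 KO libraries. With 1 library left out, Plekhb1 was called in none of 6 fits, and Gm35082 and Rab6a were called only without WT 1 or without KO 1 (Rab6a adjusted p up to 0.167 in the others).

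Among the tested genes not called, Mrpl48, a mitochondrial ribosomal protein gene, and Fam168a had log2 fold changes of -0.43 (adjusted p = 0.114) and -0.47 (adjusted p = 0.104). The sialidase gene Neu3 and the TNF receptor family gene Relt were at -0.58 (adjusted p = 0.272) and -0.30 (adjusted p = 0.46), and the RhoGEF gene Arhgef17 at -0.15 (adjusted p = 0.506). Xrra1, Gm10603 and Gm3200 had 68 to 134 counts over all 6 libraries, with log2 fold changes of -1.72, 0.98 and -0.04 and adjusted p from 0.398 to 0.971. The processed pseudogene Gm18959, inside an intron of Rnf169, was at 0.83 (adjusted p = 0.205). The chordin-like gene Chrdl2 had 0 counts in all libraries, and the potassium channel subunit gene Kcne3 had 4, all in KO 1.

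By side, 0 of the 9 tested genes at lower coordinates were called higher and 2 lower (3.55% and 3.86% over all tested genes), with a median log2 fold change of -0.47. At higher coordinates, C2cd3 included and Ppme1 left out, 4 of 13 were called higher and 1 lower, with a median of -0.04. Of the 4 higher genes, Dnajb13, Plekhb1 and Gm35082 passed the filter only through KO and Ucp2 was known beforehand, so nothing is read from the counts per side. The 4 lie between 121.0 and 302.8 kb beyond Ppme1, with Coa4, Mrpl48 and Rab6a among them. Over all 22 tested genes of the interval, 14 log2 fold changes were below 0 and 8 above, with a median of -0.20. The 8 include Dnajb13, Plekhb1 and Gm35082, whose direction the filter fixed. Of all 15223 tested genes, 7451 were below 0 and 7772 above. With upper-quartile factors or library sizes alone, 13 of the 22 were below 0 and their medians were -0.13 and -0.14, while the median of all genes moved to 0.08. From 500 kb to 1 Mb from Ppme1, 0 of 10 tested genes were called higher and 1 lower, with a median of 0.00. The edge of the interval separates Neu3 (498.3 kb) and Arhgef17 (497.4 kb) inside from Mir3102 (510.0 kb) and F730035P03Rik (545.2 kb) outside, the latter with 0 counts. Whether the sides or distances differ was not tested.

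**Figure D2:**
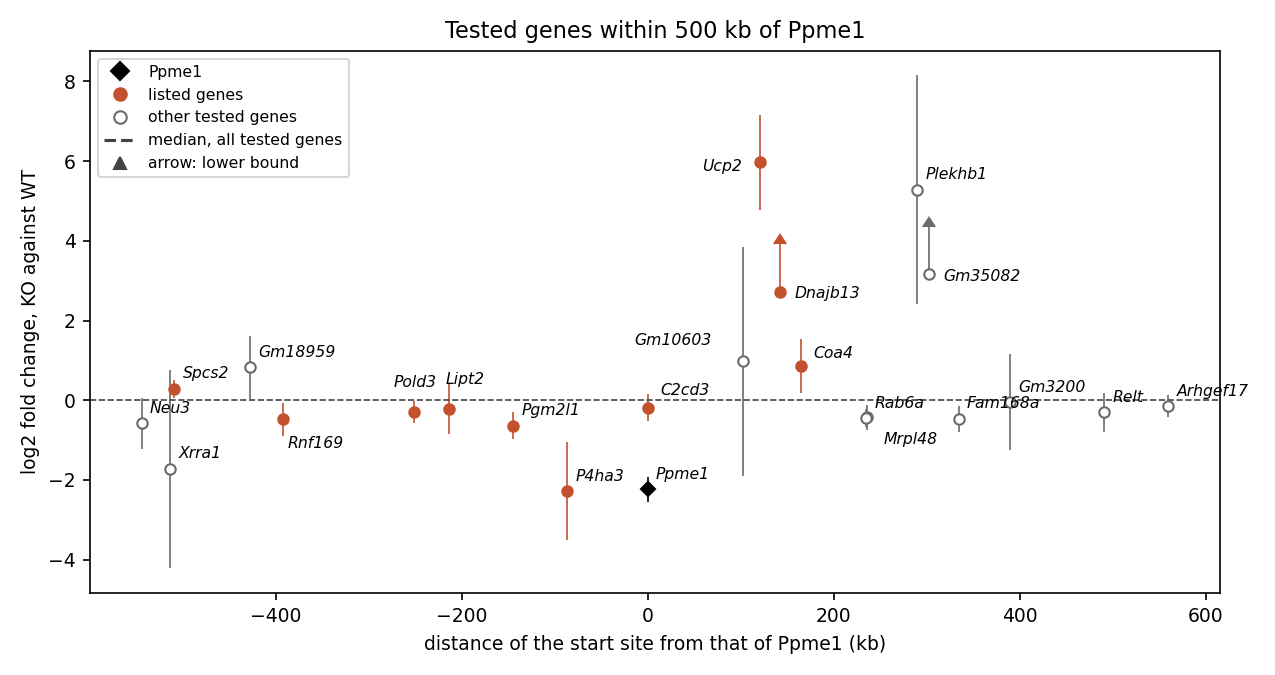
Log2 fold change (KO against WT) of the 22 tested genes within 500 kb of Ppme1 and of Ppme1 (black diamond), against the distance of their start sites from that of Ppme1 in kb (some exceed 500 kb because the interval was measured between gene ends), with the median of all tested genes dashed. Filled circles are the 10 listed genes, open circles the 12 others, bars 95% intervals, and arrows mark Dnajb13 and Gm35082, drawn at their lower bounds because all WT libraries were at 0. Ucp2 at 5.97 stands above C2cd3, at -0.19, which starts beside Ppme1. Plekhb1, at 5.29, passed the filter only through KO libraries, so its direction was fixed, and its value rests on 4 counts in WT 2.

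Genes that work with each neighbour in the cell but lie elsewhere were counted next, from lists of complexes and families drawn up by function, with earlier results of these data known. Of 9 genes of the RNF168 and 53BP1 arm of the DNA break response, 8 were tested and 1 was called, lower, beside 3.86% of all tested genes called lower. Rnf168, the ubiquitin ligase whose mark on histone H2A is bound by RNF169, fell from 95.3 ± 8.43 to 65.9 ± 1.01 CPM (log2 fold change -0.53, SE 0.10, edgeR adjusted p = 0.0276), lower in 3 of 3 KO libraries, and with 1 library left out it was called only without WT 1 or without KO 1. Of 20 cytochrome c oxidase assembly factors, the group of Coa4, 18 were tested, 2 were called higher and 0 lower, beside 3.55% and 3.86% of all tested genes. Coa3 rose from 16.8 ± 0.952 to 28.7 ± 2.08 CPM (log2 fold change 0.77, SE 0.13, adjusted p = 0.0157) and Cox15, which makes heme a, from 33.8 ± 2.76 to 47.9 ± 1.41 CPM (0.51, SE 0.11, adjusted p = 0.0411). Coa3 kept its call only without WT 1 or without KO 1, and Cox15 in none of the 6 fits with 1 library left out. The median of the assembly factors was 0.11, beside 0.01 over all tested genes.

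In the other lists no partner passed the edgeR threshold. At an unadjusted p under 0.05, edgeR had 2 each of the polymerase delta, lipoic acid and centriole genes, 1 each of the signal peptidase, phosphoglucomutase and DNAJB genes and 0 of the prolyl hydroxylases. DESeq2 called 2 lipoic acid genes, 2 centriole genes and 1 each of the polymerase delta, signal peptidase and DNAJB lists, and limma-voom called 0 in any of these lists. Over all 15223 tested genes DESeq2 called 2406 and limma-voom 1179. The share of all genes at that unadjusted p is not given here, so nothing is read from these counts. All 11 genes of DNA polymerase delta and its clamp were tested, with a median of 0.01; the clamp Pcna was at -0.20 (adjusted p = 0.431) and Lig1, the ligase of lagging-strand synthesis, at -0.36 (adjusted p = 0.135). All 4 other signal peptidase genes were tested, and Spcs3 was at 0.46 (adjusted p = 0.0606) and Spcs1 at 0.19 (adjusted p = 0.623). The other collagen prolyl 4-hydroxylase subunits P4hb and P4ha1 were at -0.01 (adjusted p = 0.976) and -0.51 (adjusted p = 0.362), where P4ha3 was at -2.28. Of 9 lipoic acid genes, Lipt2 included, the most abundant in CPM were Dlst at -0.35 (adjusted p = 0.259) and Dld at 0.02 (adjusted p = 0.944). Of 5 tested phosphoglucomutase and phosphomannomutase genes, Pgm1 was at 0.85 (adjusted p = 0.201) and Pmm1 at -0.05 (adjusted p = 0.891). Fbf1 and Cep83 of the 11 tested centriole genes were at -0.16 (adjusted p = 0.406) and -0.21 (adjusted p = 0.317). The DNAJB co-chaperones Dnajb11 and Dnajb6, of 9 tested, were at 0.07 (adjusted p = 0.883) and 0.05 (adjusted p = 0.83).

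**Figure D3:**
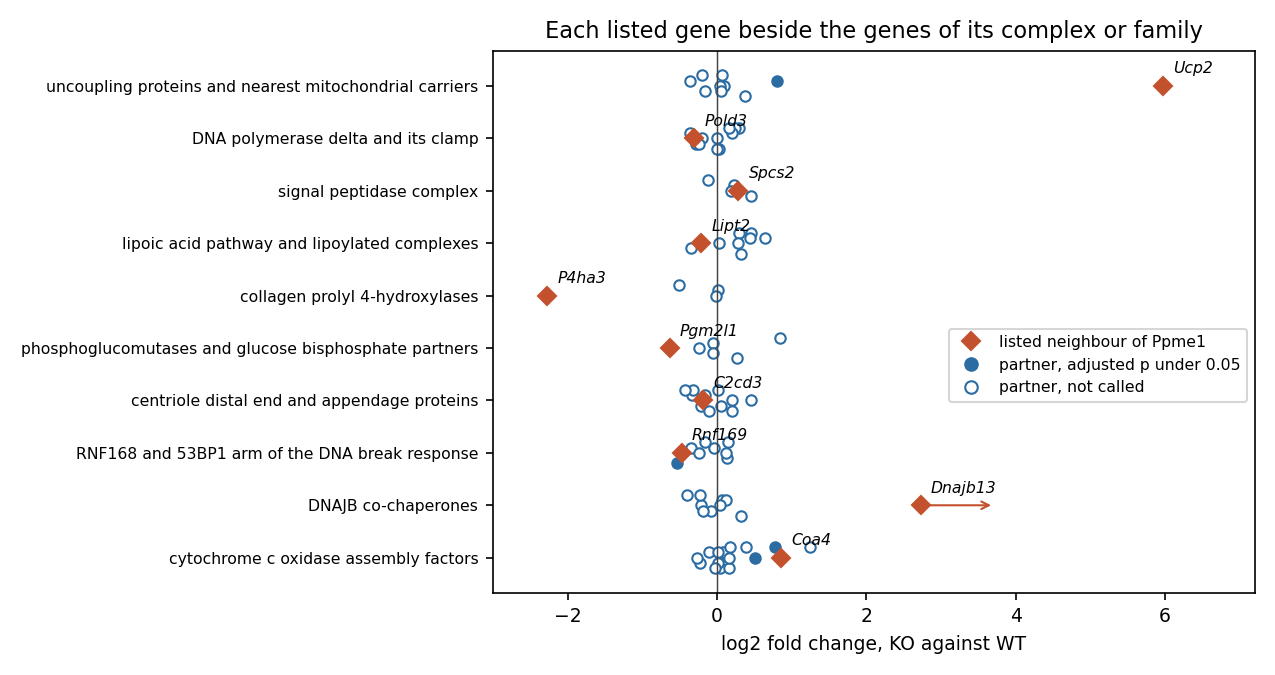
Log2 fold change (KO against WT) of each listed neighbour (red diamond) and of the genes of its complex or family elsewhere in the genome (blue circles, filled where the adjusted p was under 0.05), with 1 list per row and an arrow where the value is a lower bound (Dnajb13). Ucp2 at 5.97 and P4ha3 at -2.28 lie outside the range of the tested genes in their rows, whose called member nearest to Ucp2 is Slc25a30 at 0.80.

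The genes whose levels followed Ucp2 most closely over the 6 libraries were Zcchc3, Dkk3, Cxcl5, Prxl2a and Pmpcb, with Pearson correlations of log2 CPM from 0.9962 to 0.9985. The search covered 10093 named genes whose mean reached 5 CPM. These values mostly reflect the gap between the groups, and 31 genes reached at least 0.99. By Spearman correlation 114 genes tied at 1, so the order of the 6 libraries does not single out a gene. Over deviations from the group means, the closest were Epn3, Pomgnt2, Lrig1, Srebf1 and H3f3b, at 0.9985 to 0.9997. For Ucp2 these deviations, taken on the log2 scale, come mostly from the WT libraries, where WT 1 was at 1.30 CPM against 4.69 and 4.41. KO 1 (268 CPM, against 192 and 196) weighs less on that scale. The closest genes were also picked from all 10093. The 6 libraries share their depth and group structure across all genes, so all these correlations are descriptions only.

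The size of the differences was set against other ways of processing the counts. Ucp2 was between 5.41 and 6.24 on the log2 scale in 15 alternatives and past the threshold in 14, all but the fit with the replicate number as a block. P4ha3 was between -3.27 and -1.97, and past the threshold in 5 of 15. The alternatives reuse the same 6 libraries, and the 10 genes were chosen with this comparison known. Passing the threshold again is therefore no further evidence. No listed gene changed sign in any alternative that kept it. Without WT 1 and KO 1, which leaves 2 libraries per group, 8 of the 10 neighbours were past the threshold, but so were 7408 of the 15449 genes tested.

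**Figure D4:**
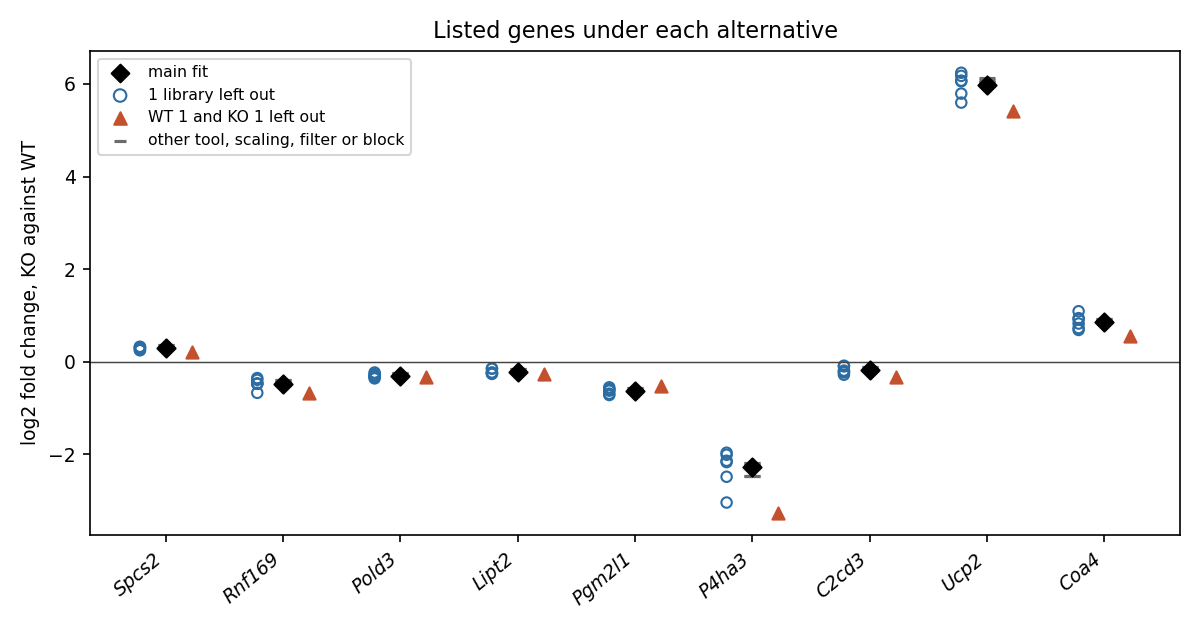
Log2 fold change (KO against WT) of 9 listed neighbours as fitted (black diamond), with 1 library left out (blue circles), without WT 1 and KO 1 (red triangle) and with another tool, scaling, filter or block (grey bars). Dnajb13 is left out because it had 0 counts in WT. Every value of Ucp2 is at least 5.41, and P4ha3 shows the widest spread on the lower side, from -3.27 to -1.97.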

How the data were processed

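Sequencing covered RNA of immortalized MEFs in 6 libraries, made with a directional kit per the labels' protocols. The authors deposited unnormalized counts of reads for each symbol and library. The submitters' processing notes list Trim Galore 0.6.6 and HISAT2 2.2.1, and a human build, while the symbols are those of mouse. Which program, strand setting and annotation produced the counts is not given in the sources used here. Positions and transcript lengths come from GENCODE M21 (GRCm38), which holds 92.9% of the symbols, and promoter windows from RefSeq (GRCm38.p6).

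The test was that of edgeR 4.0.16 under R 4.3.3 on the counts (filterByExpr, TMM factors, robust glmQLFit, glmQLFTest), with Benjamini-Hochberg adjustment over 15223 genes. All adjusted p-values are edgeR's unless another tool is named. The SE is the log2 fold change divided by the square root of F. Alternatives were DESeq2 1.42.0, limma-voom (limma 3.58.1), other scaling factors, other filters, a replicate block and left-out libraries. Near-identical copies were sought with blastn 2.17.0 (at least 90% identity over 300 bases). In a simulation of KO against WT with 15223 genes, 47 of 100 planted 2-fold changes and 85 of 100 planted 4-fold changes were recovered by edgeR, and 7 of its 139 calls were false. Counting intervals (95%, exact binomial) and floors cover counting error only.

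The 10 neighbours and all lists were chosen with earlier results of these data known. Named genes are the 10 neighbours, Ppme1, every other tested gene within 500 kb, of each partner list at most 4 called members with a mean of at least 1 CPM or else the 2 most abundant, and the 5 genes most like Ucp2. Slc25a4, Slc25a5, Ucp1, Ucp3, Chrdl2, Kcne3, Spcs2-ps and Gm12475 lie outside that rule and were named after their values were seen. The same holds for the cell type markers of every list that are named with a value or direction, Nes included.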

Additional observations from a re-analysis of the deposited data

How the results depend on the processing

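The log2 fold changes of the 10 neighbours kept their direction in all alternatives that kept the gene. Of the neighbours, 4 were past the threshold as reported, 6 with DESeq2 (Spcs2 and Coa4 added), 4 with limma-voom, 3 with no filter on low counts, 2 with median ratio factors, upper-quartile factors or library sizes alone, 1 at a mean of at least 5 CPM (which removed Lipt2, Dnajb13 and Coa4), 1 to 3 with 1 library left out and 8 without both libraries numbered 1. Of the other genes within 500 kb, 3 were called, against 5 with DESeq2, 1 with library sizes alone, 1 at a mean of at least 5 CPM, 0 to 2 with 1 library left out, 7 without both libraries numbered 1 and 1 within 250 kb. Over all 15223 tested genes 1127 were called, 2406 with DESeq2 and 1179 with limma-voom. Other scaling gave 1124 calls (median ratio factors), 1077 (upper-quartile factors) and 1030 (library sizes alone). Dropping the filter gave 1011 calls among 23796 genes, and the 5 CPM cut gave 824 among 10768. With 1 library left out 332 to 1216 of 15532 to 15866 genes were called, and 7408 of 15449 without both libraries numbered 1. Ppme1 was between -2.29 and -2.13 with 1 library left out. The cause of these shifts was not tested. Whether the replicate numbers pair the samples is not settled here. Deviations from the group means correlated at -0.512, -0.307 and -0.223 for WT and KO libraries numbered 1, 2 and 3. WT 1 and KO 1 stood apart in their groups and weigh on all of these values, so the values cannot decide it. With the replicate number as a block, 8 of 15223 tested genes were called, 0 of the neighbours and 0 of the other genes within 500 kb. With so few calls over all genes, these 0 counts do not show that the genes were unchanged. Ppme1 was then at -2.245 (adjusted p = 0.0518). Depth limits Dnajb13, Plekhb1 and Gm35082, with at most 97 counts in any library.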
